A study of Homo sapiens with 12 samples.

Results

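The B-cell receptor proximal signalling genes are the first components that a B cell uses to turn binding of antigen into an intracellular signal. The 9 genes described here were chosen by name for that role: CD79A and CD79B, SYK, LYN, BTK, BLNK, PLCG2, VAV1 and PTPN6. They are 9 of 46863 gene symbols in the count table, and all 9 were among the 16835 genes with enough reads to be tested. Their RNA was measured by sequencing of polyadenylated RNA in SU-DHL-4, an established line from a diffuse large B-cell lymphoma of the germinal centre type. The study describes no engineered change of the line and reports a missense mutation of ADGRA2 in it. The cells were exposed for 72 h to the solvent DMSO alone, to 1 µM Entospletinib (Ento), to 0.01 µM AZD5153 (AZD), or to both agents at these doses (Ento+AZD), with 3 libraries per group that the sample titles number 1 to 3. Ento is an inhibitor of the kinase SYK, so that one of the genes described is its target, and AZD is a bivalent inhibitor of the BET bromodomain proteins, which bind acetylated histones and promote transcription. SU-DHL-4 is 1 cell line, so the libraries are repeats of that line and do not sample different tumours. RNA does not report the activity or the phosphorylation of these proteins.

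The B-cell receptor is a membrane immunoglobulin held together with a heterodimer of CD79A and CD79B, which carry the tyrosine motifs that signal. The Src-family kinase LYN phosphorylates these motifs, SYK docks on them and becomes active, and SYK then phosphorylates the adaptor BLNK. BLNK gathers the kinase BTK, the phospholipase PLCG2 and the exchange factor VAV1, which open the calcium, protein kinase C and cytoskeletal branches, whereas the phosphatase PTPN6 (SHP-1) is recruited by inhibitory receptors and takes phosphate off again. Lymphoma lines of the germinal centre type are known to use a low, antigen-independent form of this signal.

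The 12 libraries held 18121993 to 24675830 counts, so 1 count was worth 0.0393 to 0.0564 CPM (the count divided by the library size in megareads, normalised by TMM). All 9 B cell markers and all 6 germinal centre markers on the lists used were detected, with the germinal centre marker LMO2 at 2.51 to 60 CPM. Markers of T cells summed to at most 2.4 CPM, those of NK cells to at most 3.12 and those of myeloid cells to at most 7.68 CPM, while CD3D, CD2, S100A8 and FCGR3A were at 0 in all libraries. From these lists CD3E, NKG7, PRF1, ITGAM and CD68 had enough reads to be tested, with at most 51, 53, 23, 49 and 110 counts per library. The stromal list summed to 37 to 126 CPM, almost all of it from DCN, with COL1A2 and KRT19 at 0. In bulk RNA a change in the share of cells that express a gene and a change of its RNA per cell cannot be told apart. The mitochondrial ribosomal RNA RNR2 took 1.55 to 1.83% of counts with DMSO and 2.15 to 2.56% with Ento+AZD, and the part of this difference in the results was not tested. Libraries with the same number tended to deviate the same way from their group means, and the replicate number was a term of the model.

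The proximal genes covered a wide range of levels in DMSO. Per kilobase of exons, the receptor subunits were highest, with CD79A at 500 ± 132 and CD79B at 182 ± 63.6 CPM per kilobase (SD, n = 3). SYK followed at 86.5 CPM per kilobase, then LYN at 46.9, VAV1 at 41.6, PLCG2 at 37 and BTK at 30.5 CPM per kilobase. BLNK, the adaptor, stood lower at 7.67 CPM per kilobase, and PTPN6 was lowest at 2.84 CPM per kilobase. The ranges of LYN and VAV1 overlapped, as did those of VAV1 and PLCG2, so these neighbours were not ordered beyond their spread. With the length of the longest transcript in place of all exons LYN moved from rank 4 to rank 7, PLCG2 to rank 4 and BTK to rank 6, and the ranks of the other genes stayed the same. PTPN6, at 95 to 509 counts per library in DMSO, is the member with the fewest reads behind its values.

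**Figure D1:**
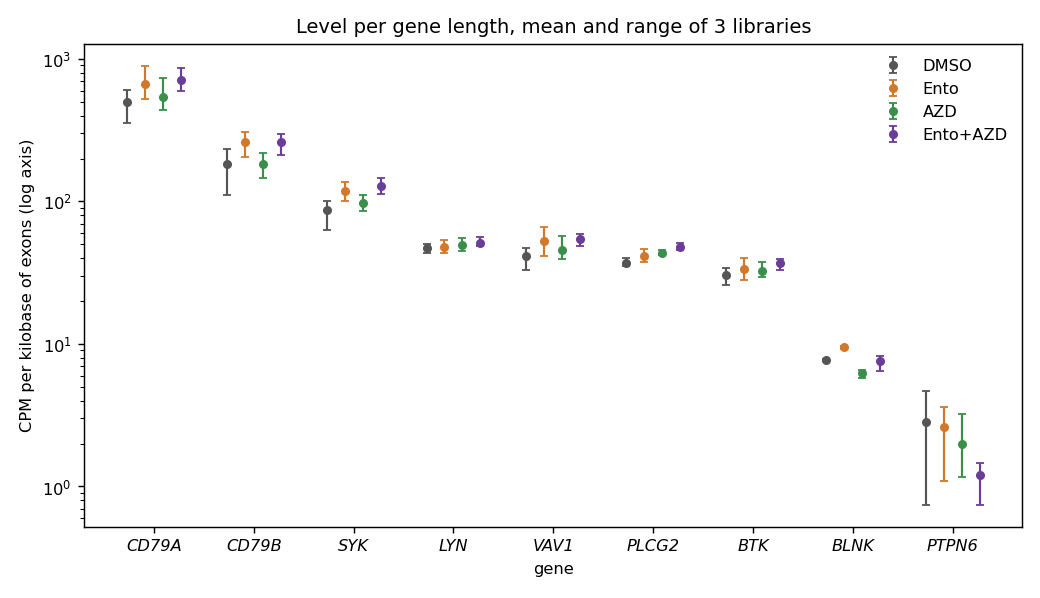
Level of each of the 9 genes in CPM per kilobase of exons (log axis), ordered by the DMSO mean. Points are means of 3 libraries per group and bars reach from the lowest to the highest library. CD79A (500 in DMSO) is highest and PTPN6 (2.84 in DMSO) lowest, and within each group the PTPN6 bar is the longest on this axis.

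The RNA of CD79A, SYK and VAV1 varied together over the libraries while that of BLNK and PTPN6 did not, so the 250 bases before the start of these 5 genes, chosen after their values were seen, are shown. They are from the RefSeq promoter table of GRCh38.p14, read 5′ to 3′ on the strand of the gene. Capitals mark matches on either strand to one of 6 motifs that were searched: the GC box GGGCGG, the ETS core GGAAGT, the TATA box TATAAA, the E-box CACGTG, the octamer core TGCAAAT and a pair of EBF1 half-sites CCCNNGGG.
CD79A (chr19:41877029-41877278, plus strand): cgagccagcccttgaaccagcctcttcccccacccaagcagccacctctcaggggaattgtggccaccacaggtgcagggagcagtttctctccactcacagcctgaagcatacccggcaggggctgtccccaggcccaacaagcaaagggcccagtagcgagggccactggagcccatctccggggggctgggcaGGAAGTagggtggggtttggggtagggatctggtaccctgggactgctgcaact
SYK (chr9:90801569-90801818, plus strand): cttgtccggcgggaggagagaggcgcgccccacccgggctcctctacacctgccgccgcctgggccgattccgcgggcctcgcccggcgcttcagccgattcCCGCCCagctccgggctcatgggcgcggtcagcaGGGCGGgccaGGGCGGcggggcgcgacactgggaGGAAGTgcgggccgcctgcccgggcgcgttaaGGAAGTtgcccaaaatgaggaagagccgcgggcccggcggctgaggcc
VAV1 (chr19:6772458-6772707, plus strand): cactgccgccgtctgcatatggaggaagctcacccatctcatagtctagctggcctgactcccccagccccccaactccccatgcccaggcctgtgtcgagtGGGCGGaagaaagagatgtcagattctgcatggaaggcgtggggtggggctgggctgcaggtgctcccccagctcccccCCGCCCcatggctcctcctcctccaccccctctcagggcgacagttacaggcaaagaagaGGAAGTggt
BLNK (chr10:96271570-96271819, minus strand): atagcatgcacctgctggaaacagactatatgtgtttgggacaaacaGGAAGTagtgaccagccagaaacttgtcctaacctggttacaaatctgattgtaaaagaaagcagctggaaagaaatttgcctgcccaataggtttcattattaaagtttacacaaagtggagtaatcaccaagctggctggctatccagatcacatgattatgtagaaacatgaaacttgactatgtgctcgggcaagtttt
PTPN6 (chr12:6951106-6951355, plus strand): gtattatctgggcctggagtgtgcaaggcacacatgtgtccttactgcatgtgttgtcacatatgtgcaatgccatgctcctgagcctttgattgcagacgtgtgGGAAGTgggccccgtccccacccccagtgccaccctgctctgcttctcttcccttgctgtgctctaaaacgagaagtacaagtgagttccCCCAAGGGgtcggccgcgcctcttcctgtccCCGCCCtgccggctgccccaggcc
Of the 9 genes, 7 had an entry in the promoter table, each searched over 300 bases from 250 before to 50 after the start. The ETS core occurred in 6 of 7 (CD79A, SYK, BLNK, PLCG2, PTPN6 and VAV1), against 22.8% of all 35116 promoters of the table. SYK had it at 80 and at 48 bases before the start, and CD79A at 54. The GC box occurred in 5 of 7 (SYK, BTK, PLCG2, PTPN6 and VAV1), against 45% of all promoters. The EBF1 pair was found in PTPN6, against 19.1% of all promoters, and no match to the TATA box, the E-box or the octamer core was found in the 7 windows. Neither motif set the genes that varied together apart from the others, and a match describes the letters and not binding. The PLCG2 window lies 40250 bases from the start of the gene's canonical transcript.

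CD79A and CD79B, the signalling subunits of the receptor, were higher with Ento and with Ento+AZD. CD79A (ENSG00000105369.10, GRCh38 chr19:41877279-41881372, plus strand) measured 728, 816 and 474 CPM in DMSO replicates 1, 2 and 3 and 808, 1200 and 701 CPM in the Ento replicates. It measured 587, 992 and 612 CPM with AZD and 898, 1170 and 798 CPM with Ento+AZD. Every Ento and every Ento+AZD library was above the DMSO library of its number, but the groups overlapped. Number 2 was highest in each group, and DMSO replicate 3 was the lowest of the 12 libraries. The change was 1.33-fold with Ento (95% confidence interval 1.14 to 1.56, adjusted p = 0.0266, edgeR quasi-likelihood, adjusted after Benjamini and Hochberg) and 1.43-fold with Ento+AZD (1.22 to 1.67, adjusted p = 0.00162). With AZD alone it was 1.08-fold (0.923 to 1.26, adjusted p = 0.486), with the AZD library of number 1 below and those of numbers 2 and 3 above DMSO, and it passed the threshold without DMSO replicate 1 (log2 fold change 0.27, adjusted p = 0.0456). The Ento call was lost when Ento replicate 1, 2 or 3 or DMSO replicate 2 or 3 was left out (log2 fold change 0.31 to 0.45, adjusted p 0.0709 to 0.14).

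CD79B (ENSG00000007312.14, chr17:63928738-63932336, minus strand) measured 496, 430 and 236 CPM in DMSO and 580, 649 and 433 CPM with Ento. With AZD the values were 380, 466 and 313 CPM, and with Ento+AZD 590, 630 and 452 CPM. DMSO replicate 3 was again the lowest of the 12 libraries and Ento replicate 2 the highest, as for CD79A. CD79B rose 1.46-fold with Ento (1.23 to 1.73, adjusted p = 0.0107) and 1.48-fold with Ento+AZD (1.25 to 1.75, adjusted p = 0.00159). Within the replicate numbers the log2 difference between Ento+AZD and DMSO was 0.25, 0.55 and 0.94, so the size of the rise varied over the numbers while its direction did not. AZD alone gave 1.02-fold (0.863 to 1.21, adjusted p = 0.869). Without Ento replicate 2 the Ento call was lost (log2 fold change 0.54, adjusted p = 0.0587). In the annotation 288 exonic bases of CD79B are shared with another protein-coding gene on the same strand (ENSG00000285947), so reads there are uncertain.

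The ratio of the subunits ran from 1.39 to 2.13 over the libraries. The CPM of CD79A divided by that of CD79B was 1.79 ± 0.286 in DMSO, 1.62 ± 0.229 with Ento, 1.88 ± 0.3 with AZD and 1.71 ± 0.171 with Ento+AZD (SD, n = 3). These ranges overlapped in all groups, and number 1 had the lowest ratio in each group (1.39 to 1.54). Within every number the ratio was lower with Ento than with DMSO (1.39, 1.85 and 1.62 against 1.47, 1.9 and 2.01). It was also lower with Ento+AZD than with AZD (1.52, 1.85 and 1.77 against 1.54, 2.13 and 1.96). The ratio was not tested.

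**Figure D2:**
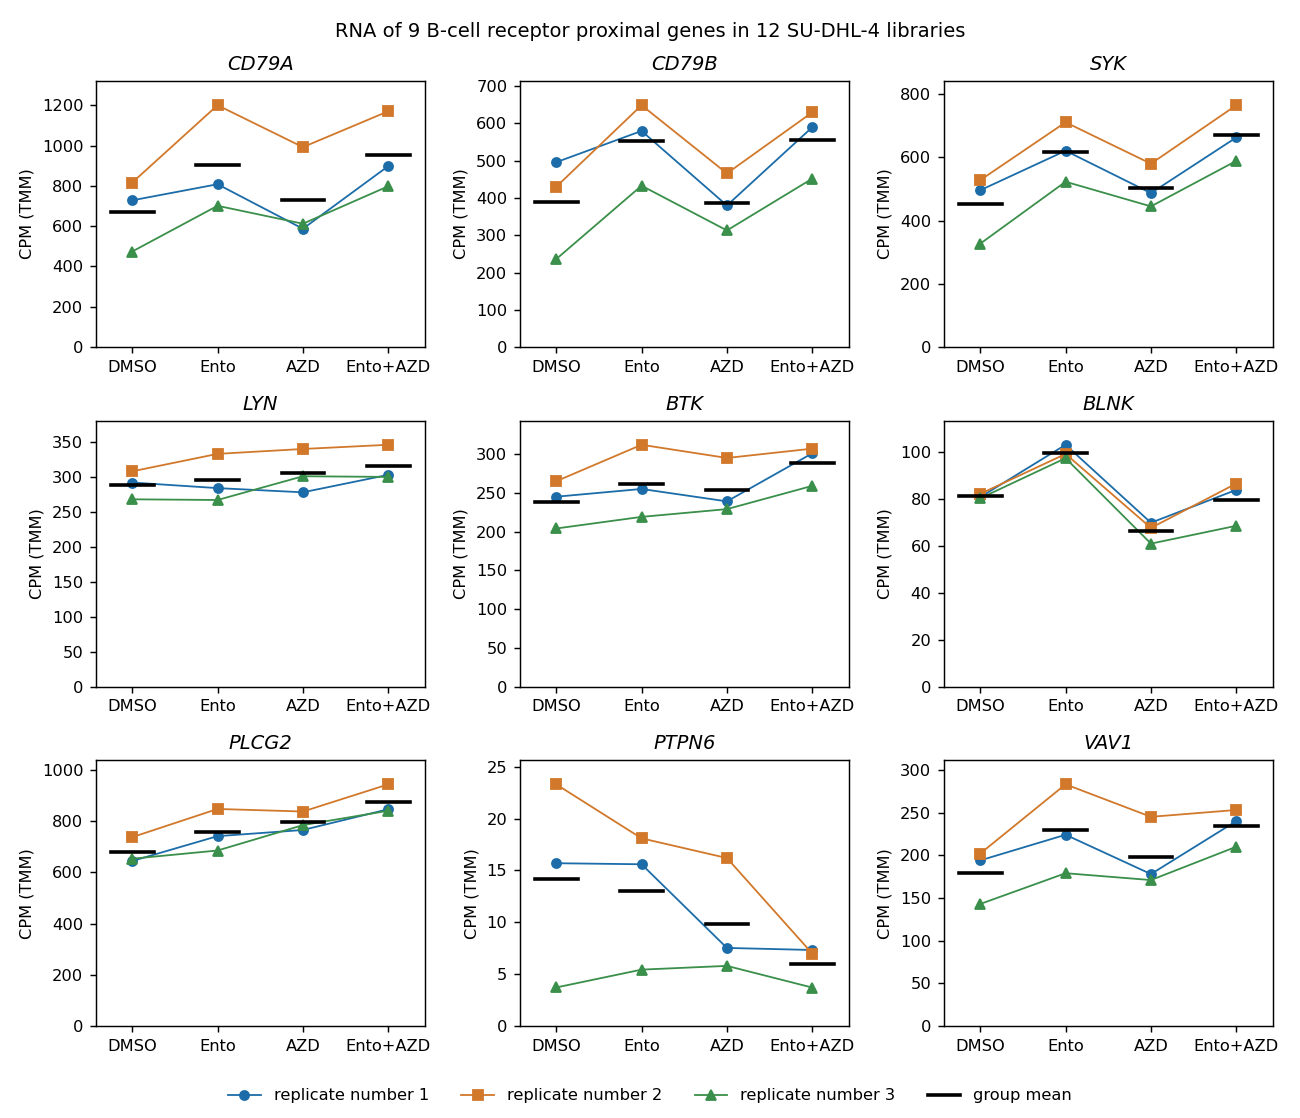
CPM (TMM-normalised, linear axes from 0) of each of the 9 genes in the 12 libraries, by exposure. Colours and symbols mark the replicate number, lines join libraries with the same number, and black bars are group means. SYK rises from 327 to 528 in DMSO to 589 to 765 with Ento+AZD, BLNK is highest with Ento (97.3 to 103) and lowest with AZD (60.9 to 69.8), and PTPN6 differs most between replicate numbers.

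SYK, the kinase that Ento inhibits, had more RNA with Ento and most with Ento+AZD. SYK (ENSG00000165025.15, chr9:90801787-90898549, plus strand) measured 496, 528 and 327 CPM in DMSO and 621, 711 and 523 CPM with Ento. It measured 487, 580 and 445 CPM with AZD and 663, 765 and 589 CPM with Ento+AZD. All Ento+AZD libraries were above all DMSO and all AZD libraries, whereas Ento replicate 3 lay just below DMSO replicate 2. The rise was 1.39-fold with Ento (1.22 to 1.57, adjusted p = 0.00455) and 1.51-fold with Ento+AZD (1.33 to 1.71, adjusted p = 0.000112). Both calls held when any of the 12 libraries was left out, with adjusted p of at most 0.0294 and 0.00129. Neither held without the replicate term (adjusted p = 0.362 and 0.0521). AZD alone gave 1.13-fold (0.999 to 1.28, adjusted p = 0.143), which passed without DMSO replicate 1 (log2 fold change 0.27, adjusted p = 0.0339). Added to AZD, Ento raised SYK 1.33-fold (1.18 to 1.51, adjusted p = 0.00819), and this call was lost without AZD replicate 1 (log2 fold change 0.36, adjusted p = 0.0616). Added to Ento, AZD gave 1.09-fold (0.962 to 1.24, adjusted p = 0.325).

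The other kinases moved less. LYN (ENSG00000254087.8, chr8:55879835-56014169, plus strand), which phosphorylates the CD79 tails, measured 292, 308 and 268 CPM in DMSO and 303, 346 and 300 CPM with Ento+AZD. With Ento it measured 284, 333 and 267 CPM and with AZD 278, 340 and 301 CPM. All groups overlapped. No comparison of LYN passed the threshold, and the largest, Ento+AZD against DMSO, was 1.09-fold (0.985 to 1.21, adjusted p = 0.161). For Ento the interval was 0.916 to 1.13-fold (adjusted p = 0.875).

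BTK (ENSG00000010671.18, chrX:101349338-101390796, minus strand), the Tec-family kinase that activates PLCG2, measured 245, 265 and 204 CPM in DMSO and 255, 312 and 219 CPM with Ento. It measured 239, 295 and 229 CPM with AZD and 301, 307 and 259 CPM with Ento+AZD. The lowest Ento+AZD library lay below the highest DMSO library, yet each was above the DMSO library of its number. BTK rose 1.22-fold with Ento+AZD (1.09 to 1.36, adjusted p = 0.00748), a call that was lost without Ento+AZD replicate 1 (log2 fold change 0.25, adjusted p = 0.0504). The single agents gave 1.1-fold (0.981 to 1.22, adjusted p = 0.295) with Ento and 1.07-fold (0.957 to 1.19, adjusted p = 0.382) with AZD.

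BLNK, the adaptor that SYK phosphorylates, was the gene that the single agents moved in opposite directions. BLNK (ENSG00000095585.18, chr10:96189171-96271587, minus strand) measured 80.7, 82.1 and 80.2 CPM in DMSO, the narrowest spread for its level of any member in DMSO. It measured 103, 99.1 and 97.3 CPM with Ento and 69.8, 67.6 and 60.9 CPM with AZD, neither group overlapping DMSO. With Ento+AZD it measured 83.8, 86.5 and 68.5 CPM, around the DMSO level for numbers 1 and 2 and below it for number 3. BLNK rose 1.23-fold with Ento (1.1 to 1.38, adjusted p = 0.0277) and fell to 0.814-fold with AZD (0.726 to 0.913, adjusted p = 0.0154). Set directly against each other, Ento was 1.51-fold above AZD (1.35 to 1.69, adjusted p = 0.000148), which held without any single library (adjusted p of at most 0.00244) and without the replicate term (adjusted p = 0.00808). Ento+AZD gave 0.979-fold against DMSO (0.874 to 1.1, adjusted p = 0.786), 0.796-fold against Ento (0.71 to 0.893, adjusted p = 0.00843) and 1.2-fold against AZD (1.07 to 1.35, adjusted p = 0.0395).

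Several of the smaller BLNK calls depended on single libraries. The rise with Ento was lost without DMSO replicate 1 or 2 or any one Ento library (log2 fold change 0.26 to 0.33, adjusted p 0.0641 to 0.114). The fall with AZD was lost without AZD replicate 2 or 3 or DMSO replicate 3 (log2 fold change -0.29 to -0.24, adjusted p 0.0641 to 0.0936). Against Ento, the Ento+AZD call was lost without replicate 3 of either group (-0.29 and -0.26, adjusted p = 0.0619 and 0.0738), and against AZD it was lost without any one Ento or AZD library or Ento+AZD replicate 1 or 2 (log2 fold change 0.21 to 0.28, adjusted p 0.0506 to 0.158). In the annotation 364 exonic bases overlap ZNF518A on the opposite strand, and whether counting used the strand is not given in the sources used here. On the same strand 854 exonic bases of BLNK overlap the processed pseudogene NPM1P25, so reads there are uncertain.

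PLCG2 and VAV1, the effectors gathered on BLNK, were both higher with Ento+AZD. Of the single agents, AZD passed the threshold for PLCG2 and Ento for VAV1. Ento set directly against AZD passed for neither (PLCG2 adjusted p = 0.505, VAV1 adjusted p = 0.15). PLCG2 (ENSG00000197943.12, chr16:81779279-81962685, plus strand), which makes the second messengers of the calcium and protein kinase C branches, measured 644, 737 and 653 CPM in DMSO and 741, 847 and 685 CPM with Ento. It measured 765, 837 and 784 CPM with AZD and 846, 943 and 840 CPM with Ento+AZD. All AZD and all Ento+AZD libraries were above all DMSO libraries. PLCG2 rose 1.17-fold with AZD (1.06 to 1.3, adjusted p = 0.0244) and 1.29-fold with Ento+AZD (1.17 to 1.43, adjusted p = 0.000693), and the log2 difference of Ento+AZD from DMSO within the numbers was 0.39, 0.36 and 0.36. With Ento alone it was 1.12-fold (1.01 to 1.23, adjusted p = 0.165), and Ento+AZD was 1.16-fold above Ento (1.05 to 1.28, adjusted p = 0.0376). The AZD call was lost without any one AZD library (log2 fold change 0.20 to 0.26, adjusted p 0.0586 to 0.146), and the call against Ento was lost without any one Ento or Ento+AZD library or AZD replicate 1 or 2 (log2 fold change 0.16 to 0.24, adjusted p 0.0547 to 0.215). The call for Ento+AZD against DMSO held in all 12 omissions (adjusted p of at most 0.00608) and without the replicate term (adjusted p = 0.0312). In the annotation 4459 exonic bases of PLCG2 overlap noncoding genes on the same strand (ENSG00000289733 and RN7SKP176), so reads there are uncertain.

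VAV1 (ENSG00000141968.8, chr19:6772708-6857366, plus strand), an exchange factor that acts on the cytoskeleton, measured 194, 202 and 143 CPM in DMSO and 224, 283 and 179 CPM with Ento. It measured 178, 245 and 171 CPM with AZD and 240, 253 and 210 CPM with Ento+AZD. The Ento+AZD libraries were all above the DMSO libraries, and those of the single agents overlapped them. VAV1 rose 1.27-fold with Ento (1.11 to 1.45, adjusted p = 0.0307) and 1.32-fold with Ento+AZD (1.15 to 1.5, adjusted p = 0.00316), against 1.1-fold with AZD (0.964 to 1.26, adjusted p = 0.283). The Ento call was lost without Ento replicate 1 or 2 or DMSO replicate 2 or 3 (log2 fold change 0.28 to 0.35, adjusted p 0.0883 to 0.187).

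PTPN6, the inhibitory phosphatase SHP-1, was lower with Ento+AZD, at low and uneven levels. Of the 9 members it was the one with a change over 1 on the log2 scale and an adjusted p under 0.05 against DMSO, a rule that 8.32% of tested genes passed with Ento+AZD. PTPN6 (ENSG00000111679.17, chr12:6946468-6961316, plus strand) had 395, 509 and 95 counts in DMSO, or 15.7, 23.3 and 3.73 CPM. It measured 15.6, 18.1 and 5.45 CPM with Ento, 7.54, 16.2 and 5.81 CPM with AZD and 7.34, 7 and 3.72 CPM with Ento+AZD. Number 3 was lowest in every group, and its DMSO and Ento+AZD libraries were at the same level, whereas numbers 1 and 2 were lower with Ento+AZD (log2 difference -1.10 and -1.73). In the fit PTPN6 fell to 0.474-fold with Ento+AZD against DMSO (0.322 to 0.697, adjusted p = 0.00469) and to 0.482-fold against Ento (0.327 to 0.712, adjusted p = 0.0119). The fall against DMSO passed the test without any single library (adjusted p of at most 0.0411) but not without all 4 libraries of number 2 (log2 fold change -0.69, adjusted p = 0.0978). Against Ento it was lost without Ento replicate 1 or Ento+AZD replicate 2 (log2 fold change -0.91 and -0.76, adjusted p = 0.082 and 0.0766). Ento alone gave 0.983-fold (0.688 to 1.4, adjusted p = 0.964) and AZD alone 0.755-fold (0.524 to 1.09, adjusted p = 0.255). The AZD fold change passed without DMSO replicate 3 (log2 fold change -0.69, adjusted p = 0.0421). Ento+AZD was 0.628-fold of AZD (0.422 to 0.935, adjusted p = 0.119), which passed without AZD replicate 1 (adjusted p = 0.0428) or DMSO replicate 3 (adjusted p = 0.044).

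Over the 9 genes, Ento against DMSO called 5, all higher (CD79A, CD79B, SYK, BLNK and VAV1), where 8.32% of all tested genes were called and 4.66% called higher. The median log2 fold change of the members was 0.30, beside 0.01 over all genes tested. AZD against DMSO called 2, PLCG2 higher and BLNK lower, where 22.2% of all tested genes were called, so the share of members was that of the background. Ento+AZD against DMSO called 7, with CD79A, CD79B, SYK, BTK, PLCG2 and VAV1 higher and PTPN6 lower, against 40% of tested genes called and 19.2% called higher. The median log2 fold change of the members was 0.37 there and 0.10 with AZD, each beside 0.01 over all genes. These 3 comparisons share the DMSO libraries, and DMSO replicate 3 was the lowest of the 12 libraries for 5 of the members. By DMSO CPM, SYK stood above 98.4% of tested genes, VAV1 above 93.4%, BLNK above 82.3% and PTPN6 above 48.2%. The shares over all tested genes were not matched for level. The members were chosen with earlier results of these data known. CD79A, CD79B, SYK and VAV1 correlated with each other at 0.9 to 0.97 after the replicate means were subtracted, so their calls are not separate observations. The groups did not overlap for 1 member with Ento, 2 with AZD and 3 with Ento+AZD, where this held for 15.1%, 24.4% and 39.2% of tested genes. All 3 libraries differed in the same direction from the DMSO library of their number for 7 members with Ento, 2 with AZD and 8 with Ento+AZD, against 42.6%, 51.5% and 59.5% of tested genes, where the 8 include PTPN6, whose values of number 3 differed by 0 to 2 decimals. Without DMSO replicate 3 Ento called 3 members (CD79B, SYK and BLNK), and Ento+AZD called the same 7. Of all tested genes 5.92% and 35.3% were called there. The summed level of the B cell markers ranged from 4120 to 6470 CPM in DMSO, 4880 to 8530 with Ento, 5440 to 8090 with AZD and 6180 to 8320 CPM with Ento+AZD, ranges that overlap, and CD79A, CD79B and CD22 are on that list. Its part in the members' changes was not tested.

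**Figure D3:**
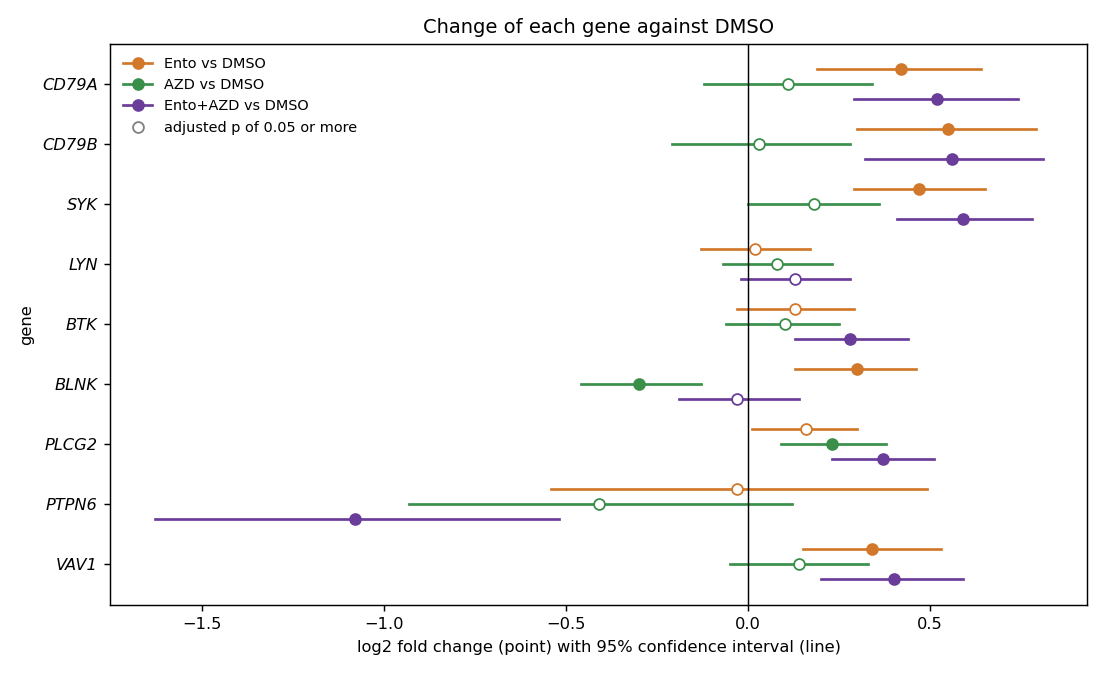
Log2 fold change against DMSO (point) with its 95% confidence interval (line) for each of the 9 genes under Ento, AZD and Ento+AZD, from one edgeR fit of all 12 libraries. Filled points have an adjusted p under 0.05. Of the 9 genes, 6 are filled to the right of 0 under Ento+AZD, BLNK is filled on opposite sides under Ento (0.30) and AZD (-0.30), and PTPN6 under Ento+AZD lies farthest left (-1.08).

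Between the exposures, BLNK was called in every comparison. The receptor subunits and SYK were called when Ento was added to AZD, and PLCG2 and PTPN6 when AZD was added to Ento. Ento+AZD against AZD, the effect of adding Ento, called 4 members, all higher (CD79A, CD79B, SYK and BLNK), where 11.9% of tested genes were called and 5.85% called higher. CD79A rose 1.33-fold in that comparison (1.13 to 1.55, adjusted p = 0.0246) and CD79B 1.44-fold (1.22 to 1.71, adjusted p = 0.0105). Without AZD replicate 1 none of the CD79A, CD79B and SYK calls passed (adjusted p = 0.156, 0.0744 and 0.0616), and without Ento+AZD replicate 3 those of CD79A and CD79B did not (adjusted p = 0.108 and 0.0546). That of CD79A was also lost without Ento+AZD replicate 1 or AZD replicate 2 (adjusted p = 0.0797 and 0.0509). Ento+AZD against Ento, the effect of adding AZD, called 3, with PLCG2 higher and BLNK and PTPN6 lower, against 20.4% of tested genes. CD79A and CD79B were at 1.07-fold (0.917 to 1.25, adjusted p = 0.537) and 1.01-fold (0.853 to 1.2, adjusted p = 0.938) there. Ento against AZD called 3, all higher with Ento (CD79B, SYK and BLNK), against 14.7% of tested genes called and 8.99% called higher. CD79B was 1.43-fold higher with Ento (1.2 to 1.69, adjusted p = 0.00801) and lost its call without Ento replicate 3 (adjusted p = 0.0531). CD79A was at 1.24-fold (1.06 to 1.45, adjusted p = 0.0683), which passed without DMSO replicate 1 or 3 (adjusted p = 0.0145 and 0.0393). SYK was 1.22-fold higher (1.08 to 1.39, adjusted p = 0.0322) and lost it without any one Ento or AZD library or Ento+AZD replicate 1 (log2 fold change 0.24 to 0.34, adjusted p 0.0513 to 0.137).

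Whether the agents together gave more or less than the sum of their log2 changes was tested by the interaction of Ento and AZD. It called 0 of the 9 members and 0% of all tested genes with edgeR, with 0 members at an unadjusted p under 0.05 with edgeR or with DESeq2, while 1652 of all tested genes (9.81%) had an unadjusted p under 0.05. DESeq2 called 0 members and 7 of all tested genes. For SYK the interaction was -0.06 on the log2 scale (-0.31 to 0.20) and for BLNK -0.03 (-0.27 to 0.20), where the single agents' changes of 0.30 and -0.30 stood beside -0.03 for both together. For PTPN6 it was -0.65 (-1.42 to 0.12, adjusted p = 0.567), an interval wide enough to hold both an additive change and a strong departure from it.

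The replicate number took a large share of the variation of most members. Of the variance of log2 CPM over the 12 libraries it accounted for 69.4% in LYN, 65.6% in PTPN6, 63.2% in BTK, 58.8% in CD79A and 54.6% in VAV1, against 8.4% in BLNK and 26.9% in PLCG2. The exposure accounted for 85.4% in BLNK, 68.9% in PLCG2 and 56% in SYK. Number 3 was the lowest library in all 4 groups for 6 members (CD79B, SYK, BTK, BLNK, PTPN6 and VAV1), and number 2 the highest in all 4 groups for 6 (CD79A, SYK, LYN, BTK, PLCG2 and VAV1). In the model without the replicate number, the calls among the members fell to 0 for Ento, 0 for AZD and 1 for Ento+AZD against DMSO, the last being PLCG2. Of all tested genes, that model called 0.214%, 1.94% and 14.2% in these comparisons.

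With the means of the replicate numbers subtracted, the members fell into a group that varied together and others that did not, given here as a description over 12 libraries that share exposures and a normalisation. CD79A correlated with CD79B at 0.97, with VAV1 at 0.97 and with SYK at 0.95, and BTK with VAV1 at 0.91. BLNK correlated with SYK at 0.30 and with LYN at -0.41. PTPN6 ran against PLCG2 at -0.64 and against SYK at -0.27. Over all tested genes, the 5 with the highest correlation with SYK were LOC729683 (0.981), STX7 (0.975), DMAP1 (0.974), BANP (0.974) and ORAI2 (0.973). STX7, a syntaxin of late endosomes, measured 160 ± 16.5 CPM in DMSO, 211 ± 9.84 with Ento, 190 ± 9.35 with AZD and 232 ± 10.4 with Ento+AZD (SD, n = 3). ORAI2, a calcium channel subunit, measured 299 ± 51.2 CPM in DMSO and 413 ± 36.6 CPM with Ento+AZD (SD, n = 3). CD79B ranked 24, CD79A 26 and VAV1 103 among the 16834 genes by this measure.

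The other genes of the pathway were taken as 6 lists of 88 genes, of which 82 were tested. Ento against DMSO called 21 of the 82 (25.6%, where 8.32% of all tested genes were called), with 12 higher and 9 lower. AZD called 24 (29.3%, against 22.2% of all tested genes), with 6 higher and 18 lower. Ento+AZD called 40 (48.8%, against 40% of all tested genes), with 19 higher and 21 lower. The median log2 fold change over the 82 was 0.06 with Ento, -0.06 with AZD and 0.01 with Ento+AZD. Without the replicate term the counts called of the 82 were 0, 5 and 14, where 0.214%, 1.94% and 14.2% of all tested genes were called. Single genes of these lists were not followed through the omission of libraries, and groups with a call could overlap in CPM.

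**Figure D4:**
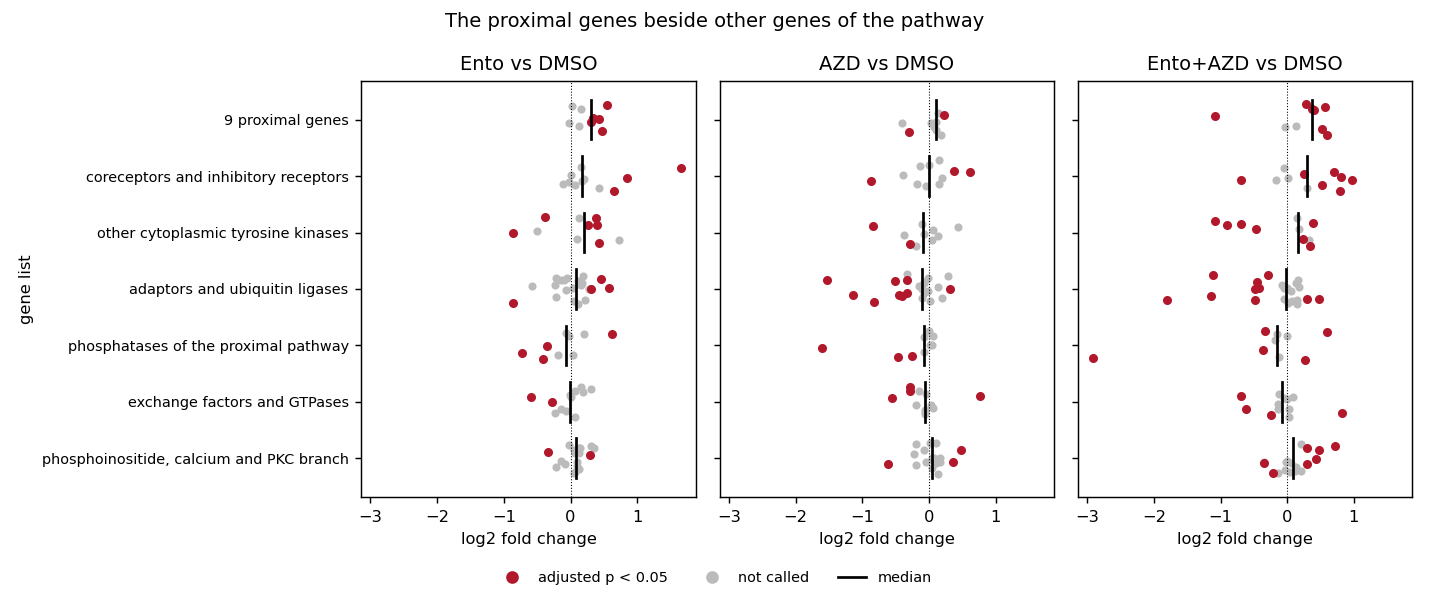
Log2 fold change against DMSO of the 9 proximal genes (top line) and of the tested genes of 6 other lists of the pathway, in 3 panels for Ento, AZD and Ento+AZD. Each point is a gene, red where its adjusted p is under 0.05, and black lines are list medians. The median of the proximal genes is 0.30, 0.10 and 0.37 in the 3 panels, and the point farthest left is a phosphatase under Ento+AZD (UBASH3B, -2.91).

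Among coreceptors and inhibitory receptors, 6 of 11 tested genes rose and 1 fell with Ento+AZD (63.6% called, against 40% of all tested genes). CD22, an inhibitory lectin that recruits PTPN6, rose with AZD (log2 fold change 0.62, adjusted p = 0.0114) and with Ento+AZD (0.79, adjusted p = 0.0011). CD72, another receptor that recruits PTPN6, fell with AZD (log2 fold change -0.87, adjusted p = 0.00107) and with Ento+AZD (-0.69, adjusted p = 0.00128). The adhesion receptor PECAM1 rose with Ento (0.84, adjusted p = 0.0111) and with Ento+AZD (0.81, adjusted p = 0.00261).

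Of 10 other cytoplasmic tyrosine kinases tested, 3 rose and 4 fell with Ento+AZD (70% called, against 40% of all tested genes). BLK, a Src-family kinase of B cells, rose with Ento from 360 ± 39.1 to 471 ± 50 CPM (SD, n = 3, log2 fold change 0.39, adjusted p = 0.00461). The Src-family kinase FGR, known mostly from myeloid cells, fell with Ento+AZD (log2 fold change -1.08, adjusted p = 0.000518), from 13.9 ± 3.51 CPM in DMSO (SD, n = 3). LCK rose with Ento (log2 fold change 0.38, adjusted p = 0.0202) and fell with AZD (-0.28, adjusted p = 0.0457) and with Ento+AZD (-0.47, adjusted p = 0.0013). Its DMSO libraries, at 88.5 to 125 CPM, overlapped those with Ento (110 to 191), AZD (75 to 107) and Ento+AZD (61.5 to 89.5 CPM).

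Among 22 tested adaptors and ubiquitin ligases, 2 rose and 8 fell with Ento+AZD (45.5% called, near the 40% of all tested genes), and 1 rose and 8 fell with AZD (40.9%, against 22.2%). LCP2 (SLP-76), the relative of BLNK used mainly in T and myeloid cells, fell with Ento (log2 fold change -0.86, adjusted p = 0.037), with AZD (-1.14, adjusted p = 0.00565) and with Ento+AZD (-1.12, adjusted p = 0.0027), from 2.31 ± 0.899 CPM in DMSO (SD, n = 3). GAB2, a docking protein, fell with AZD (log2 fold change -1.53, adjusted p = 0.00189) and with Ento+AZD (-1.8, adjusted p = 0.000214), also from a low level of 3.1 ± 0.307 CPM. BANK1, an adaptor that binds LYN, rose with Ento (0.57, adjusted p = 0.0118) and fell with AZD (-0.41, adjusted p = 0.0311). SLA, which limits receptor signalling, rose with Ento (0.45, adjusted p = 0.0321) and fell with AZD (log2 fold change -0.82, adjusted p = 0.000844). BLNK had the same directions as BANK1 and SLA in these comparisons. The libraries of BANK1 with AZD, and those of SLA with either agent, overlapped the DMSO libraries in CPM.

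Of 9 tested phosphatases, 2 rose and 3 fell with Ento+AZD (55.6% called, against 40% of all tested genes). UBASH3B (STS-1), which acts on SYK, fell from 2.48 ± 0.537 CPM in DMSO to 0.322 ± 0.0315 CPM with Ento+AZD (SD, n = 3, log2 fold change -2.91, adjusted p = 4.92e-06), and it fell with AZD (log2 fold change -1.61, adjusted p = 0.000375) and with Ento (-0.73, adjusted p = 0.029). PTPN18 rose from 203 ± 30 CPM to 311 ± 27.2 CPM with Ento (SD, n = 3, log2 fold change 0.62, adjusted p = 0.00025) and by a similar log2 fold change of 0.60 with Ento+AZD (adjusted p = 3.85e-05).

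Of 12 exchange factors and GTPases, 1 rose and 3 fell with Ento+AZD (33.3% called, below the 40% of all tested genes). VAV3, a relative of VAV1, fell with Ento (log2 fold change -0.6, adjusted p = 0.00675) and with Ento+AZD (-0.62, adjusted p = 0.000918), where VAV1 rose. The Ras exchange factors RASGRP1 and RASGRP3, which respond to the diacylglycerol that PLCG2 makes, went opposite ways. RASGRP1 fell from 182 ± 5.16 to 113 ± 9.87 CPM with Ento+AZD (SD, n = 3, log2 fold change -0.70, adjusted p = 1.33e-05), while RASGRP3 rose from 121 ± 17.6 to 212 ± 16.3 CPM (SD, n = 3, log2 fold change 0.82, adjusted p = 2.16e-05).

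In the phosphoinositide, calcium and protein kinase C branch, 5 of 18 tested genes rose and 2 fell with Ento+AZD (38.9% called, near the 40% of all tested genes). PIK3CD, the catalytic subunit of the phosphoinositide 3-kinase of lymphocytes, measured 78.6 ± 0.921 CPM in DMSO, 96.1 ± 4.66 with Ento and 51.7 ± 4.07 with AZD (SD, n = 3). It rose with Ento (log2 fold change 0.29, adjusted p = 0.0314) and fell with AZD (log2 fold change -0.61, adjusted p = 0.000358), as BLNK did, and it fell with Ento+AZD (-0.22, adjusted p = 0.0324). ITPR1, the calcium release channel opened by the product of PLCG2, rose with AZD (0.48, adjusted p = 0.00644) and with Ento+AZD (0.72, adjusted p = 0.000136). MALT1, a protease of the NF-κB branch, fell with Ento (log2 fold change -0.34, adjusted p = 0.022) and with Ento+AZD (-0.35, adjusted p = 0.00498).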

How the data were processed

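The deposited gene table holds raw read counts, not normalised. To make it, the authors ran TrimGalore (CutAdapt) on single reads, took GRCh38.p13 as the reference and used Rsubread for alignment and counting. The submitters' processing notes also list hg19, with no role, and the strand setting, the treatment of reads with several matches and the annotation release are not given in the sources used here. A second deposited table holds log2 CPM of 16226 genes. It contains all 9 members, matches log2 CPM recomputed with edgeR (prior count 2) within 5e-09 and was not used for tests.

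Counts were analysed with edgeR 4.0.16 in R 4.3.3: TMM scaling, filterByExpr with the treatment groups (at least 10 counts, total at least 15), a model of all 12 libraries with group and replicate number, and glmQLFTest with p-values adjusted after Benjamini and Hochberg over 16835 genes. A call is an adjusted p under 0.05. CPM are given per library or as mean ± SD, and fold changes with 95% confidence intervals from 6 residual degrees of freedom and the spread shared across genes. The fit was tested on simulated data first. Replicate numbers come from the titles of the samples, which the study describes as biological replicates. Deviations from group means correlated at 0.213 to 0.703 between libraries with the same number (18 pairs), so the numbers were taken to pair the libraries. Between libraries with different numbers (36 pairs) the correlation was -0.627 to 0.325. Subtraction of group means pulls these values down where the former are positive, so they add no separate evidence. Libraries of a group differed by more than sampling noise (chi-square per degree of freedom 8.21 to 48.5).

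The members, the 6 pathway lists and the marker lists were chosen with earlier results of these data known. From each list up to 4 called genes per comparison with the largest log2 fold change and a mean of at least 1 CPM could be named, and the text names a part of these. LCK with Ento, BANK1 with AZD and PIK3CD with Ento+AZD were added after their values were seen. For SYK the 5 genes most correlated with it were named. The pathway lists came from textbook knowledge, and 6 of their 88 genes did not pass the filter. Some genes of these lists are not reported here. Gene positions and exon lengths are from GENCODE v44 (GRCh38), promoters from RefSeq (GRCh38.p14). Alternatives were RLE scaling, no filter, DESeq2 1.42.0, no replicate term, fits of the compared groups, the added limit on the fold change and omission of libraries.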

Additional observations from a re-analysis of the deposited data

How the results depend on the processing

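The replicate block decided most calls among the 9 members. In the model with no replicate block the members called numbered 0 for Ento, 0 for AZD and 1 (PLCG2) for Ento+AZD against DMSO, 0 for Ento+AZD against Ento, 0 against AZD, 1 (BLNK) for Ento against AZD and 0 for the interaction, where all genes called fell too, for Ento from 1401 to 36, for AZD from 3745 to 326 and for Ento+AZD from 6736 to 2398. Of all tested genes this model called 1.22% for Ento+AZD against Ento, 0.101% against AZD and 3.2% for Ento against AZD. The numbers were taken to pair the libraries, and the part of this pairing in the lost calls was not tested. With an absolute log2 fold change over 1 as well, the counts were 0, 0, 1, 1, 0 and 0 in the order Ento, AZD and Ento+AZD against DMSO, Ento+AZD against Ento and against AZD, and Ento against AZD. For Ento+AZD against DMSO 8.32% of all tested genes passed that limit. Fits of only the groups compared called 3 for Ento and 0 for AZD against DMSO and 5 for Ento against AZD. Those fits called 8.2%, 14.5% and 24.4% of all tested genes. Leaving out single libraries, or all 4 libraries of a number (added after seeing the data), gave 1 to 5 members for Ento, 0 to 4 for AZD and 6 to 7 for Ento+AZD against DMSO, 0 to 3 for Ento+AZD against Ento, 0 to 5 against AZD and 1 to 4 for Ento against AZD. The share of all tested genes called in these omissions was 2.48 to 9.8%, 5.82 to 24% and 26.8 to 39.2% against DMSO. It was 6.38 to 23.7%, 1.22 to 15.2% and 5.32 to 17.6% in the other comparisons, in the same order. The lowest member count for Ento came without Ento replicate 2 and without all libraries of number 2 or of number 3, and for AZD without AZD replicate 2 or 3 and without all libraries of number 3. For the interaction 278 of 30891 genes, no member among them, were called with no filter. RLE scaling, no filter and DESeq2 kept each count within 1.5 times. With no filter PTPN6 was also called for AZD against DMSO (adjusted p = 0.023), and for Ento+AZD against AZD PTPN6 and VAV1 were called and BLNK was not. Of 480 alternative values of called fold changes, 362 stayed past the threshold, 118 did not and 0 changed sign. The fewest counts behind a member's values were those of PTPN6, 66 to 509 per library. On the simulated data 79 of 100 changes of 0.5 on the log2 scale were called and 100 of 100 of size 1, in a fit of 16835 genes for Ento+AZD against DMSO. The changed genes were drawn from those with higher counts, and no other gene was changed. Changes below 0.5 were not simulated, so these rates do not cover the smaller changes of the members.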
